A study of Mus musculus with 6 samples.

Results

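The miR-379 to miR-410 cluster is a run of miRNA hairpins in the imprinted Dlk1-Dio3 domain of mouse chromosome 12. Its members were chosen by name: 37 hairpin names, from miR-379 to miR-410, matched 73 of the 1626 mature miRNAs in the deposited count table, 37 of them 5p arms and 36 of them 3p arms. Counts came from 6 small RNA libraries of fetal liver from C57BL/6J embryos, 3 wild-type (WT, libraries 1 to 3) and 3 homozygous for a deletion of the miR-144/451 locus (genotype miR-144/451-/-, here KO, libraries 4 to 6). The sample labels and the extraction protocol describe miRNA sequencing, and the series' design text names HITS-CLIP, which captures RNA bound to a protein. The counts were read as miRNA sequencing of total RNA, and whether they are of bound RNA was not tested. The labels name no agent for either group and give 5000000 fetal liver cells as the source of the RNA. The embryonic day is not given in the labels, nor whether each library came from its own embryo. A p-value here therefore reflects how far these libraries scatter, technical scatter included. The comparison asks whether its miRNAs differ between fetal livers with and without miR-144/451, and how they vary among libraries.

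Libraries held 16243894 to 27089133 miRNA counts. The deleted locus (miR-451a and both arms of miR-144) took 17.6% to 24.1% of counts in WT and 0.0214% to 0.0231% in KO, so the counts of the locus went with the genotype label in all 6 libraries. miR-122-5p, the main hepatocyte miRNA, took 2.59% to 10.3% of counts. miR-16-5p and both arms of miR-486a, summed here as the erythroid list, together took 11.5% to 19.6%. miR-16-5p is not confined to erythroid cells, and its part of that sum is not given apart. In a bulk library, fewer cells of a type and less RNA per cell cannot be told apart.

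The Dlk1-Dio3 domain is expressed in a parent-specific way: Dlk1, Rtl1 and Dio3 are active on the paternal copy, and the non-coding RNAs Meg3, Rian and Mirg, with the miRNAs embedded among them, on the maternal copy. The maternal non-coding RNAs are thought to be made as a long shared transcript from which many hairpins are cut. The cluster is known from neurons, where miR-134 acts on dendritic spines, and from liver, where loss of the cluster disturbs the metabolic adaptation of newborn mice.

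All 37 hairpins were located in GRCm38, on chromosome 12 between positions 109709060 and 109743795, a span of 34.7 kb. Of these, 36 lie on the plus strand, and Mir299b (109710645 to 109710693) lies on the minus strand within the Mir299a hairpin (109710638 to 109710700). In the GENCODE M21 annotation the last 12 hairpins, from Mir382 onward, lie inside the lncRNA Mirg (109729764 to 109749460): 8 overlap an annotated Mirg exon and 4 lie in its introns. The other 25 lie upstream of Mirg, downstream of Rian (109603940 to 109661716).

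Mature sequences from RefSeq (GRCm38.p6) matched 69 of the 73 members. The 5 most abundant members are shown first, since they carry most of the cluster's counts; capitals mark the seed, bases 2 to 8, which pairs with target mRNAs.
miR-379-5p: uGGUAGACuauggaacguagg
miR-541-5p: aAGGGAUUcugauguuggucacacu
miR-369-3p: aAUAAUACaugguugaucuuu
miR-154-3p: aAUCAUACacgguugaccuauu
miR-411-5p: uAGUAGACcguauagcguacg
The seeds of these 5 differ from each other. Among the 69 sequences there were 63 distinct seeds, and 6 of them were shared by a pair of members. The pairs that passed the filter on low counts follow, as they show which members could address the same target sites.
miR-379-3p: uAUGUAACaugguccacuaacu
miR-411-3p: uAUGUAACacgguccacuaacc
miR-1193-5p: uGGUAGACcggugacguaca
miR-410-5p: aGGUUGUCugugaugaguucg
miR-494-5p: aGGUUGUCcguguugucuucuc
miR-376b-5p: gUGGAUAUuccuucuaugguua
miR-376c-5p: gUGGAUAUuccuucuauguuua
miR-299a-3p: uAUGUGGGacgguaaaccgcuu
miR-299b-3p: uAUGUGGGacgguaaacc
Here miR-1193-5p shares the seed of miR-379-5p. The sixth pair, miR-1197-5p and miR-758-5p, was left out by the filter.

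Some letters recur among the members. The letters GGUNNNCC, where N is any base, occurred in 17 of 36 5p members (47.2%) and in 7 of 33 3p members (21.2%). In 10 of the 17 5p members they started at base 2 and so took in the whole seed, and in 4 of the 7 3p members they started at base 11, past the seed. Among the other mature miRNAs of the table with a RefSeq sequence they occurred in 6 of 553 5p arms (1.08%) and 7 of 572 3p arms (1.22%). The letters ACANGGU occurred in 7 of 33 3p members, among them miR-379-3p, miR-411-3p, miR-154-3p and miR-369-3p, and in 3 of 572 other 3p arms (0.524%); no 5p member held them. Only the mature RNA strand was searched. The motifs overlap in miR-154-3p and miR-323-3p, which hold both and share the letters GGU between them. Both motifs were chosen after the sequences had been seen, and a match describes letters only.

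Levels differed greatly between members of the cluster. Levels are given in CPM, counts per 1000000 miRNA counts, with each library total scaled by TMM, which corrects for differences in library composition. miR-379-5p, from the first hairpin, was the most abundant member, with WT levels of 3899, 5810 and 12261 CPM (libraries 1, 2 and 3) and KO levels of 4665, 5547 and 10219 CPM (libraries 4, 5 and 6). It was highest in WT library 3 and KO library 6, and the genotypes overlapped. miR-541-5p, from near the far end of the cluster, stood at 2902, 3975 and 7697 CPM in WT and 3185, 3954 and 7114 CPM in KO. miR-369-3p stood at 1728, 3205 and 6265 CPM in WT and 2408, 3653 and 5022 CPM in KO. The same libraries were high for both, and again the genotypes overlapped. miR-154-3p stood at 2029, 2782 and 6178 CPM in WT and 2559, 2901 and 5512 CPM in KO. miR-411-5p, whose hairpin follows that of miR-379, stood at 1914, 2675 and 5251 CPM in WT and 2020, 2881 and 3957 CPM in KO. These 5 miRNAs together made up 55.4% of the cluster's counts, averaged over libraries.

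The next 5 members by level were miR-495-3p, miR-376b-3p, miR-409-3p, miR-300-3p and miR-381-3p. They averaged 1756, 1506, 1378, 1096 and 1092 CPM over the 6 libraries. With them, the first 10 members held 72.3% of the cluster, miR-300-3p and miR-381-3p both counted though they cannot be read apart. A long tail followed: 53 of the 73 members each made up less than 1% of it. At the bottom, miR-654-5p had 1 count in KO library 4, 1 in KO library 6 and 0 in the other 4, where a count of 0 allows up to 0.111 to 0.182 CPM of the unscaled library total (3 counts as the upper limit, for counting error only). It was the member not detected in all 6 libraries; the other 72 were.

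**Figure D1:**
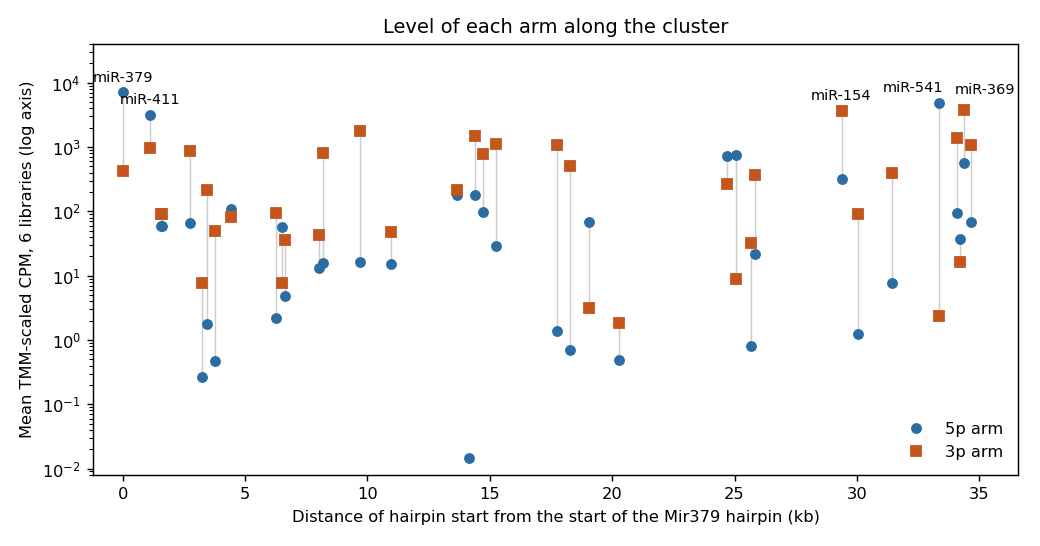
Mean TMM-scaled CPM over the 6 libraries (log axis) of the 5p arm (circles) and 3p arm (squares) of each hairpin against the distance of its start from that of Mir379 in kb; grey lines join the arms of 1 hairpin. The 5 highest hairpins, named, lie at both ends: miR-379 and miR-411 within 1.115 kb of the start, miR-154, miR-541 and miR-369 from 29.373 kb on.

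The 5 hairpins with the highest summed level of both arms, miR-379, miR-541, miR-369, miR-411 and miR-154, held 61.1% of the cluster's summed level and lay within its first 1.115 kb or from 29.373 kb on. Across the 37 hairpins, Spearman's rho of level with distance from Mir379 was 0.174, a description over hairpins of the same libraries. Neighbours could differ widely. miR-541 averaged 4807 CPM for both arms and miR-412, under 1 kb away, 53.5 CPM. miR-544 (2.296 CPM) and miR-1197 (7.82 CPM), with miR-654, were the 3 hairpins below 10 CPM.

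Some members cannot be read as separate signals. miR-300-3p and miR-381-3p differed by at most 0.443% in counts in any library.
miR-300-3p: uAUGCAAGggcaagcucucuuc
miR-381-3p: uAUACAAGggcaagcucucugu
Counted from 1 at the 5′ end, and with the base of miR-300-3p first, they differ by G4A, U21G and C22U; the first of these lies in the seed. miR-376b-5p and miR-376c-5p differ by G19U and their counts by at most 1.02%. miR-299a and miR-299b, from opposite strands of the same site, had counts within 0.118% for the 5p arms and 0.325% for the 3p arms, and the shorter sequence of each pair is contained in the longer. The sources used here do not say how reads matching several miRNAs were assigned. Cluster sums and shares keep both members of each pair, so reads assigned to both would be counted more than once. The counts of miR-410-3p also lay within 3.68% of those of miR-300-3p in every library, but its sequence is a different one (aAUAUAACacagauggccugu).

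Each hairpin is cut into a 5p and a 3p arm, of which usually one is kept as the active strand. The arms were compared in the 35 hairpins whose arms both averaged 10 counts or more. Of these, 26 held more of the 3p arm and 9 more of the 5p arm. The dominant arm was the same in all 6 libraries for 34 of the 35. The median size of the difference was 3.84 on the log2 scale. miR-541 was the most one-sided toward the 5p arm, with log2 ratios of 10.79, 11.42 and 10.41 in WT and 11.30, 10.92 and 11.44 in KO. miR-134 (mean 6.33), whose 5p arm is the form known from dendritic spines, and miR-539 (4.43) came next. Toward the 3p arm the extremes were miR-381 (-9.70), miR-487b (-9.58) and miR-323 (-6.95). miR-376c was near balance and the exception to a constant dominant arm, with ratios from -0.45 to 0.16. However, the 3p counts of miR-381 cannot be read apart from those of miR-300. The same holds for the 5p counts of miR-376c and miR-376b, and for both arms of miR-299a and miR-299b. The ratios of these hairpins, and the changing dominant arm of miR-376c, can therefore not be assigned to a single hairpin.

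The arm ratio was compared between genotypes by limma with a trended prior, after adding 1 to both counts and taking log2 of 5p over 3p, adjusted by Benjamini-Hochberg over all 263 hairpins of the table. It called 0 of the 35 cluster hairpins; the background was 0% of 263 called (lowest adjusted p of a cluster hairpin 0.573). At an unadjusted p under 0.05 it passed 1 cluster hairpin, against 5.70% of all hairpins. That hairpin was miR-668, named after its value was seen, with mean log2 ratios of -5.04 ± 0.48 in WT and -6.03 ± 0.45 in KO (SD, n = 3 each; limma adjusted p = 0.573). Its 5p arm had only 3 to 45 counts in each library.

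**Figure D2:**
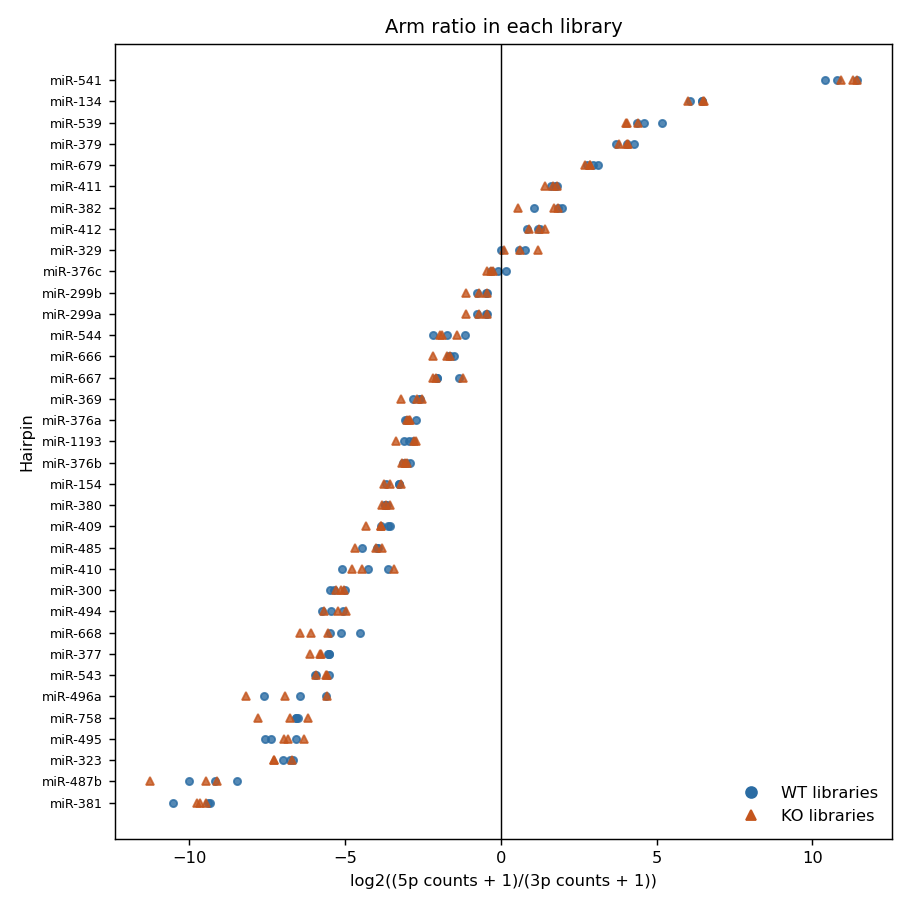
Log2 ratio of 5p to 3p counts (1 added to each) for the 35 hairpins with enough counts of both arms, 1 point per library, circles WT and triangles KO. Hairpins span from about -9.70 for miR-381 to 11.05 for miR-541, while libraries of 1 hairpin differ by at most 2.77. The 3p counts of miR-381 cannot be read apart from those of miR-300, nor the 5p counts of miR-376c from those of miR-376b.

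The cluster varied more within a genotype than between genotypes. Summed over all members it took 1.98%, 2.98% and 5.87% of miRNA counts in WT libraries 1 to 3 (Wilson 95% intervals 1.976 to 1.988, 2.974 to 2.987 and 5.864 to 5.883). In KO libraries 4 to 6 it took 3.28%, 3.74% and 6.31% (3.268 to 3.285, 3.727 to 3.745 and 6.296 to 6.316). WT library 3 was thus 2.96 times WT library 1, and KO library 6 was 1.92 times KO library 4. The intervals cover counting error only and are far narrower than the differences between libraries of a genotype.

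Nearly all members shared this pattern. Of the 70 tested members, 68 (97.1%) were highest in library 3 among WT and in library 6 among KO; of the 806 other tested miRNAs 171 (21.2%) were. The exceptions, picked out with their values in view, were miR-382-3p, the partner arm of miR-382-5p, and miR-544-5p, at 0.207 to 0.751 CPM in all libraries. The highest WT value was a median of 2.86 times the lowest for the members and 1.62 times for the others, and in KO the medians were 2.19 and 1.46. Pearson's r of a member's log2 CPM with that of the rest of the cluster over the 6 libraries had a median of 0.971 and exceeded 0.9 for 55 of 70. All points share the same libraries and scaling, so these correlations are descriptions.

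The makeup of the cluster was steadier than its level. The log2 ratio of a member to the rest of the cluster had a median SD of 0.185 over libraries, and for 53 of the 70 tested members the SD was under 0.3. miR-379-5p had an SD of 0.0635 and miR-541-5p one of 0.0708. Among the 44 members with a mean of at least 1000 counts, the largest SD was that of miR-410-5p, at 0.633. It stood at 17.1, 46.3 and 141 CPM in WT and 26.3, 44.3 and 140 CPM in KO, a wider span than its partner miR-410-3p, at 586, 883 and 1743 CPM in WT and 721, 964 and 1501 CPM in KO.

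**Figure D3:**
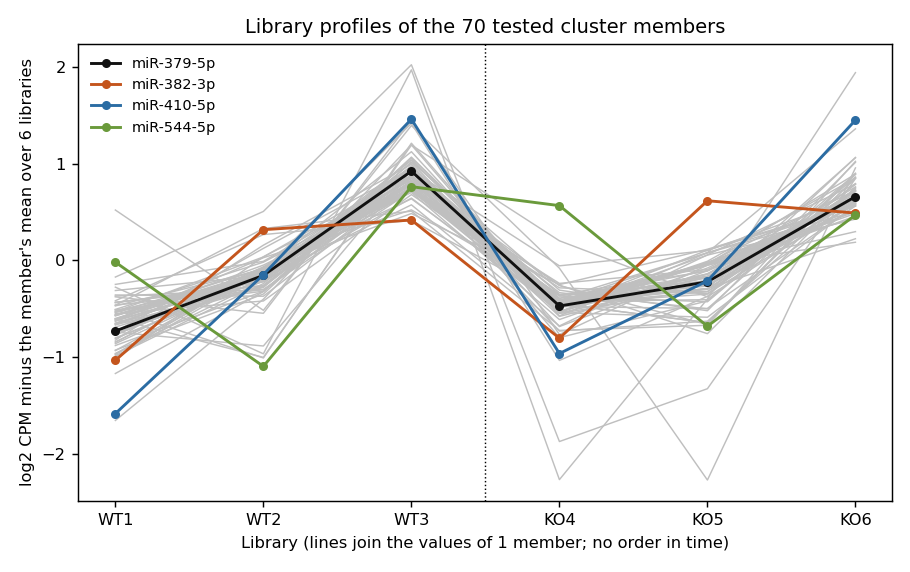
Log2 CPM of each of the 70 tested members in each library, minus the member's mean over the 6 libraries; lines join the values of 1 member and the dotted line parts WT from KO. Most lines run together, with WT3 and KO6 high; miR-382-3p is instead highest in KO5 within KO, and miR-410-5p has a wider span than miR-379-5p.

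miRNAs outside the cluster with the closest library profile were mostly its neighbours in the imprinted domain. The 5 tested miRNAs with the highest Pearson's r of log2 CPM with the cluster sum over 6 libraries were miR-127-5p (0.998), miR-431-3p (0.996), miR-493-3p (0.995), miR-431-5p (0.995) and miR-122-5p (0.992). The first 4 come from the Dlk1-Dio3 domain upstream of the cluster, where miR-127 and miR-431 lie antisense to Rtl1. The fifth is the hepatocyte miRNA. miR-122-5p stood at 29323, 50130 and 117798 CPM in WT and 37308, 42829 and 92264 CPM in KO. As for the cluster, WT library 3 and KO library 6 were highest. WT library 3 was 4.02 times WT library 1 for miR-122-5p and 2.99 times for the cluster sum.

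The cluster sum was then set against lists of miRNAs of other loci and cell types over the 6 libraries (log2 CPM, 9 relations, exact permutation tests, two-sided). The lists were chosen with earlier results of these data known. The relations also overlap, since miR-122-5p stands alone and within the hepatocyte list. Their p-values, adjusted ones included, are therefore descriptive. With 34 other Dlk1-Dio3 miRNAs Pearson's r was 0.989 (exact permutation p = 0.00556, Benjamini-Hochberg 0.0167) and Spearman's rho 0.943 (p = 0.0167, Benjamini-Hochberg 0.05). With 7 hepatocyte miRNAs (both arms of miR-122 and miR-192 among them) r was 0.993 and rho 0.943, and with miR-122-5p alone 0.992 and 0.943, with the same p-values. miR-122-5p made up most of the hepatocyte sum in every library, such as 29323 of 34277 CPM in WT library 1 and 117798 of 133100 CPM in WT library 3. The hepatocyte r is therefore largely that of miR-122-5p and does not show that the listed miRNAs agree. Without WT library 3 and KO library 6, the libraries farthest from the median, r was 0.943, 0.957 and 0.944.

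The remaining lists had lower r, and their part in the cluster's pattern was not tested. For 10 miRNAs of other imprinted loci (H19, Igf2, Mest and Gnas) r was 0.845 (exact permutation p = 0.0361, Benjamini-Hochberg 0.065; rho 0.771, p = 0.103, Benjamini-Hochberg 0.185), and 0.634 without those libraries. Its summed level ran from 4487 to 6828 CPM in WT and 5899 to 7848 CPM in KO. For 5 muscle miRNAs r was -0.779 (exact permutation p = 0.0194, Benjamini-Hochberg 0.0438; rho -0.829, p = 0.0583, Benjamini-Hochberg 0.131), and -0.996 without those libraries; they were scarce, at 14.4 to 401 CPM in WT and 13.3 to 83.6 CPM in KO, highest in WT library 1. On shares of the library total the muscle r was -0.795, with a Benjamini-Hochberg adjusted permutation p of 0.09. Without WT library 1 and KO library 6, the libraries farthest from the median on that scale, it was -0.482. For the 3 miRNAs of the erythroid list, miR-16-5p included, r was -0.724 (exact permutation p = 0.128, Benjamini-Hochberg 0.164; rho -0.714, p = 0.136, Benjamini-Hochberg 0.204), and 0.319 without those libraries, so it rests on them. Their sum was lowest in the libraries where the cluster was highest, at 131878 CPM in WT library 3 and 148580 CPM in KO library 6, against 183412 and 199524 CPM in the other WT libraries and 155273 and 178477 CPM in the other KO libraries. For 9 mesenchymal, 2 endothelial and 4 myeloid and blood miRNAs r was 0.670, 0.892 and -0.434 (exact permutation p = 0.181, 0.108 and 0.386; Benjamini-Hochberg 0.203, 0.163 and 0.386). Their rho was 0.600, 0.657 and -0.200 (exact permutation p = 0.242, 0.175 and 0.714; Benjamini-Hochberg 0.272, 0.225 and 0.714), and without those libraries each r changed sign, to -0.604, -0.344 and 0.636. None of the lists had a member at 0 in all libraries.

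**Figure D4:**
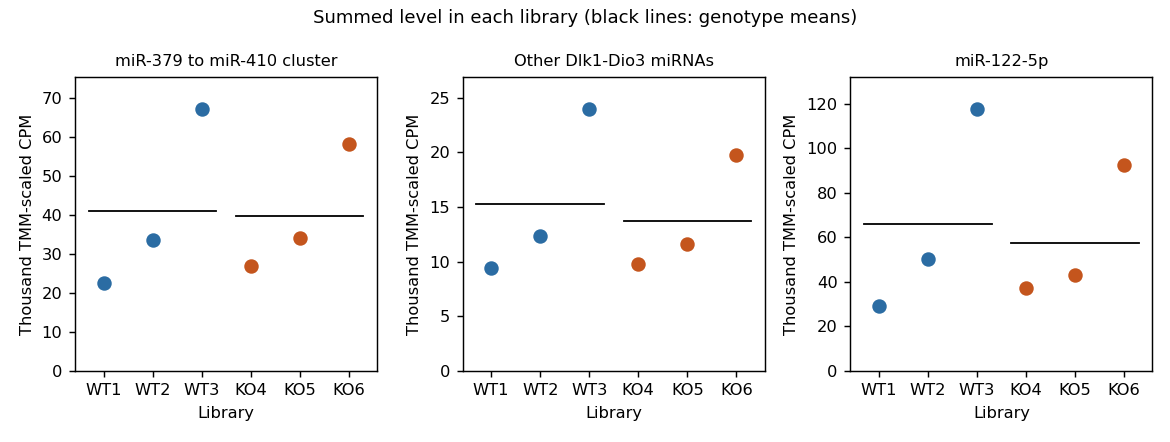
Summed level per library (units of 1000 TMM-scaled CPM, linear axes from 0) of the 73 cluster members, of 34 other Dlk1-Dio3 miRNAs and of miR-122-5p; points are libraries, black lines genotype means. In all 3 panels WT3 and KO6 stand above the other 4 libraries, and the genotypes overlap.

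Against this spread, no difference between KO and WT was detectable for the cluster as a whole. Its share of counts was 3.61% ± 2.02 in WT and 4.44% ± 1.63 in KO (SD, n = 3 each; exact two-sided permutation p = 0.5, where 3 against 3 cannot go below 0.1). The WT totals include the deleted locus and the KO totals hold almost none of it, so the shares are of unlike totals. With the locus left out of both totals the shares became 2.61%, 3.62% and 7.36% in WT and 3.28%, 3.74% and 6.31% in KO. The difference then turned from 0.828 to -0.0868 percentage points (exact permutation p = 1). In TMM-scaled CPM the sum was 41030 ± 23309 in WT and 39653 ± 16367 in KO (SD, n = 3 each).

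Ratios within a library, which need no scaling, were tighter. The cluster's counts were 0.766, 0.667 and 0.570 times those of miR-122-5p in WT and 0.719, 0.795 and 0.630 times in KO. On the log2 scale KO minus WT was 0.10 (exact two-sided permutation p = 0.6, n = 3 each). The cluster's counts were 2.39, 2.71 and 2.80 times those of the other Dlk1-Dio3 miRNAs in WT and 2.74, 2.94 and 2.94 times in KO. Here KO minus WT was 0.13 on the log2 scale (exact two-sided permutation p = 0.2, n = 3 each), with an overlap between WT library 3 and KO library 4. In that denominator miR-127-3p alone made up 4181 of 9380, 4574 of 12359 and 8616 of 24009 CPM in WT. In KO it made up 3456 of 9785, 3806 of 11582 and 6312 of 19772 CPM. Its own log2 fold was -0.36, not called by edgeR, so the 0.13 also reflects miR-127-3p. The ratio without miR-127-3p was not tested.

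Single members were tested with edgeR's quasi-likelihood test over the 876 miRNAs that passed the filter on low counts, of which 70 were members; miR-1197-5p, miR-758-5p and miR-654-5p did not pass. At a Benjamini-Hochberg adjusted p under 0.05 it called 0 members, against a background of 0.799% of all tested miRNAs. That background was 7 of 876 miRNAs, 3 of them the products of the deleted locus. The lowest adjusted p of a member was 0.602. At an unadjusted p under 0.05 edgeR passed 0 members, against 11.3% of all tested. DESeq2 and limma-voom also called 0 members, against 1% and 0.913% of the miRNAs they tested. No member had KO values all above or all below its WT values, whereas 15.9% and 5.94% of all tested miRNAs did.

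The median log2 fold of the tested members, KO over WT, was -0.04, with 21 above 0 and 49 below; over all tested miRNAs it was -0.01, with 47.5% above 0 and 52.5% below. The split depended on scaling. It was 10 above and 60 below with RLE scaling, 9 and 61 with the deleted locus removed before scaling, and 37 and 33 with limma-voom. It was 53 above and 17 below with upper-quartile scaling, and 65 above and 5 below with no scaling factor, which moved the median of all tested miRNAs to 0.34 and that of the members to 0.31. Single libraries also set the sign. The members' median was 0.40 when WT library 3 was left out and -0.46 when KO library 6 was. Without WT library 1, WT library 2 and KO library 4 it was -0.31, -0.22 and 0.10, and without KO library 5 it was 0.03. None of these alternatives called a member. At an unadjusted p under 0.05 (limma-voom's own for that alternative, edgeR's for the others) they passed 0 members, with exceptions. These were 1 member with WT library 3 left out and 2 with KO library 6 left out.

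The most abundant members had folds near 0 with wide errors. On the log2 scale miR-379-5p stood at -0.10 (SE 0.47), miR-541-5p at -0.03 (SE 0.43) and miR-369-3p at -0.01 (SE 0.48). miR-154-3p stood at -0.002 (SE 0.47) and miR-411-5p at -0.15 (SE 0.41). The edgeR adjusted p of these 5 lay between 0.964 and 0.999. For miR-379-5p a span of 2 SE either side ran from -1.05 to 0.84. The median SE was 0.47 for the members and 0.30 for the other tested miRNAs. The 2 SE span held 0 for all 70 tested members, and for 27 of them it lay wholly between -1 and 1.

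The lowest and highest folds belonged mainly to scarce arms. miR-668-5p, at 0.492, 0.787 and 2.25 CPM in WT and 0.151, 0.221 and 0.996 CPM in KO, had a log2 fold of -1.29 (SE 0.84), from 9, 19 and 45 counts in WT and 3, 4 and 26 in KO. miR-541-3p, the minor arm of the abundant miR-541-5p, stood at -0.58 (SE 0.60), and miR-487b-5p at -0.55 (SE 0.76). At the other end stood miR-495-5p at 0.36 (SE 0.77), miR-539-3p at 0.25 (SE 0.53) and miR-329-5p at 0.23 (SE 0.37). miR-495-5p, the minor arm of miR-495-3p, was measured at 4.10, 9.78 and 29.5 CPM in WT and 8.67, 13.6 and 33.1 CPM in KO. The values of the genotypes overlapped for all 6, and their edgeR adjusted p lay between 0.602 and 0.946.

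Members with a shared seed did not part by genotype either. miR-379-3p and miR-411-3p, with a common seed, lay at 0.003 (SE 0.38) and 0.004 (SE 0.42) on the log2 scale. miR-1193-5p, with the seed of miR-379-5p, stood at 0.02 (SE 0.53). miR-410-5p and miR-494-5p stood at 0.04 (SE 0.87) and 0.16 (SE 0.46). The inseparable pair miR-376b-5p and miR-376c-5p stood at -0.08 (SE 0.50) for both, and miR-299a-3p and miR-299b-3p at -0.01 (SE 0.43) for both. Their edgeR adjusted p lay between 0.964 and 0.999.

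**Figure D5:**
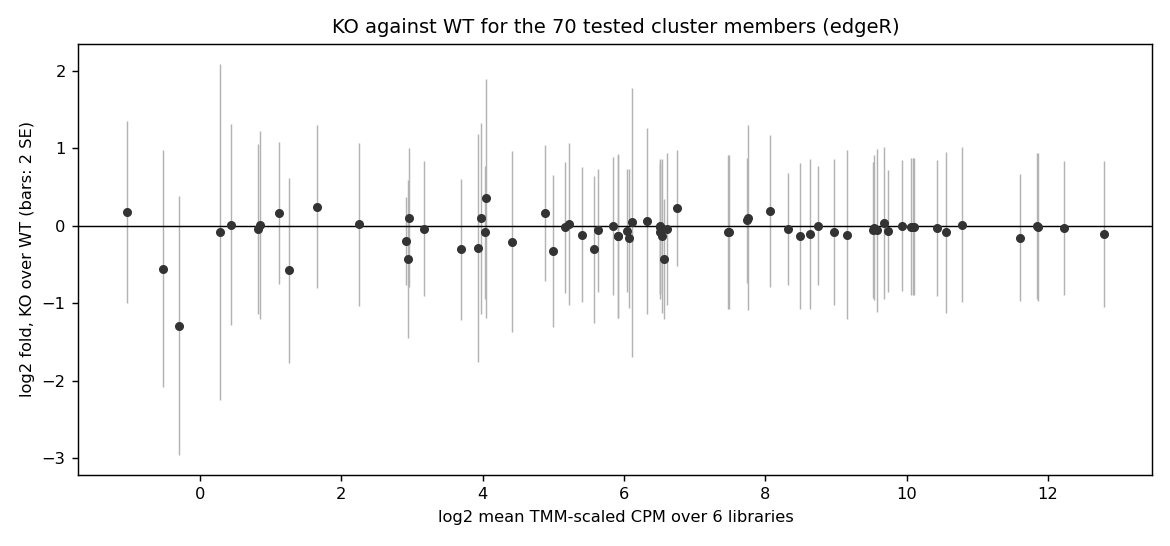
Log2 fold of KO over WT (edgeR) for the 70 tested members against log2 mean CPM over the 6 libraries; bars are 2 SE either side. Every bar crosses 0, and the point farthest from 0 is miR-668-5p at -1.29.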

How the data were processed

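The authors deposited raw read counts per mature miRNA for 6 libraries, and a percent column per library that equals the count over the library's total; the counts were used. Reads were trimmed with cutadapt, per the submitters' processing notes. The aligner, the annotation and the treatment of reads that match several miRNAs are not given in the sources used here. Members and comparison lists were chosen with earlier results of these data known.

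Counts were fitted in R 4.3.3 with edgeR 4.0.16 (TMM scaling, filterByExpr, glmQLFit and glmQLFTest) over the whole table, with Benjamini-Hochberg adjustment over the 876 miRNAs tested and a threshold of 0.05. SE is the absolute log2 fold over the square root of F. DESeq2 1.42.0, limma-voom (limma 3.58.1), other scalings and filters, and leaving out each library were alternatives. Library sums and ratios were compared by exact permutation over 20 assignments (scipy 1.17.1). The edgeR and arm-ratio scripts were tested on simulated data. Total counts of 16243894 to 27089133 per library make counting error small for all but the scarcest arms.

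Named were the 10 most abundant members, the 3 highest and 3 lowest folds, members with shared seeds, the 3 highest and 3 lowest arm ratios, and the 5 miRNAs outside the cluster most like it. Pairs within 5% in every library, at a mean of at least 100 counts, were called near-identical.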

Additional observations from a re-analysis of the deposited data

How the results depend on the processing

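The count of called members and of called arm ratios was 0 under every alternative run, while calls over the whole table (7) ranged from 1 with the deleted locus removed before scaling to 61 with no scaling factor. The difference in cluster share (0.828 percentage points) became -0.0868 with the deleted locus left out of the totals and -1377 in summed TMM-scaled CPM; leaving out each library gave -0.105 to 1.96. The log2 ratio to miR-122-5p (0.10) ranged from -0.0071 to 0.21 with a library left out. The log2 ratio to the other Dlk1-Dio3 miRNAs (0.13) ranged from 0.0615, without WT library 1, to 0.17, without WT library 3. Exact permutation p was 0.2 or above in all of these; 2 against 3 libraries cannot go below 0.2. The members' median fold (-0.04) was 0.071 with upper-quartile scaling, 0.31 with no scaling factor and 0.012 with limma-voom, and -0.46 to 0.40 with a library left out. The correlation with the muscle list was -0.80 on shares of the library total, with a Benjamini-Hochberg adjusted p of 0.09.

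No member fold has a called direction, and signs turned as follows. With upper-quartile scaling miR-379-5p, miR-541-5p, miR-369-3p and miR-154-3p stood at 0.014, 0.081, 0.11 and 0.12. With no scaling factor they stood at 0.24, 0.31, 0.33 and 0.35, and miR-411-5p at 0.20. With limma-voom miR-541-5p, miR-369-3p and miR-154-3p stood at 0.019, 0.12 and 0.092, and with no filter miR-154-3p at 0.0022. With a library left out the ranges were -0.52 to 0.41 for miR-379-5p, -0.45 to 0.39 for miR-541-5p, -0.36 to 0.51 for miR-369-3p, -0.42 to 0.53 for miR-154-3p and -0.43 to 0.29 for miR-411-5p. Among the members with the lowest and highest folds, the ranges that crossed 0 were -0.95 to 0.27 for miR-541-3p, -0.042 to 0.53 for miR-329-5p, -0.099 to 0.9998 for miR-539-3p and -0.37 to 1.33 for miR-495-5p. The cause was not tested.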

Other observations

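miR-382-3p went its own way within the cluster. It was read 2181 times in WT library 1, 7340 in WT library 2 and 6510 in WT library 3, and 2771, 6774 and 8940 times in the KO libraries. These are 119, 304 and 326 CPM in WT and 140, 374 and 343 CPM in KO. Its partner arm miR-382-5p stood at 460, 635 and 1153 CPM in WT and 497, 547 and 1127 CPM in KO. The 5p arm therefore held 386%, 209% and 354% of the 3p counts in WT and 356% in KO library 4 and 146% in KO library 5, with KO library 6 between them, lowest in WT library 2 and KO library 5. miR-382-3p was chosen after its values were seen.

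For the 56 members with at least 100 counts in every library, the log2 CPM of WT library 2 was set against the mean of WT libraries 1 and 3, and that of KO library 5 against the mean of KO libraries 4 and 6. The cluster sum itself deviated by -0.22 in WT library 2 and -0.21 in KO library 5, and both deviations were below 0 for 44 members and above 0 for 3. Such counts are not given for the other miRNAs, so they cannot be called particular to the cluster. miR-382-3p, among the 3 members above 0 in both, deviated by 0.63 and 0.77. Picked after their values were seen, miR-485-3p deviated by -0.16 and -1.01, miR-299a-5p by -0.51 and -0.85, and miR-329-3p by -0.39 and -0.87. Across members, Pearson's r between the deviations of WT library 2 and of KO library 5 was 0.521. Across the 430 other tested miRNAs with such counts it was 0.578. miRNAs of a library share its preparation and depth, and the cause was not tested.

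Of the 35 hairpins with both arms measured, the share of the less abundant arm was highest of its genotype in both WT library 3 and KO library 6 for 10, lowest in both for 4 (miR-154, miR-376a, miR-376c and miR-379) and neither for 21. The same tally is not given for the other hairpins of the table, so it cannot be called particular to the cluster. For miR-376c the 5p counts cannot be read apart from those of miR-376b. The 5p arm of miR-410 held 2.92%, 5.25% and 8.10% of the 3p counts in WT and 3.65%, 4.59% and 9.34% in KO. For miR-495 it held 0.523%, 0.598% and 1.04% in WT and 0.792%, 0.873% and 1.26% in KO. For both, WT library 3 and KO library 6 were the highest of their genotype. Both belong to the 10. These hairpins were chosen after their values were seen, and counts of the minor arms ran from 313 to 3660 for miR-410-5p and from 75 to 865 for miR-495-5p.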
